A study of Mus musculus with 2 samples.

Results

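Low-start gains are stretches of the mouse genome with little array signal at birth and clearly more at weaning age in a methylation-sensitive assay of the hypothalamus. They were chosen by 2 measured values, the log2 ratio of postnatal day 21 (P21) over the day of birth (P0) and the P0 signal itself. Probes lying within 500 bp of each other were joined into runs, and runs of at least 2 probes on the 19 autosomes were considered. A run was kept when its log2 P21/P0 ratio averaged at least 1 over the 2 arrays (2-fold), was at least about 1.5-fold on each array, and its P0 level averaged under 10 in log2 processed signal (1024 on the linear scale). This gave 365 of 18367 runs, holding 1951 probes. The gain rule without the P0 condition was met by 693 runs, or 3.77% of all, so that 52.7% of gains started low. The other 328 gains started at 10 or above. Because the rule used the ratios and the P0 signal, both are given here as descriptions without a test.

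The study compared hypothalamic DNA of female mice at P21 and P0, and both ages were of a mixed C57BL/6J and C3H/HeJ background with the non-agouti genotype. On array A the P0 DNA carried Cy5 and the P21 DNA Cy3, and on array B the dyes were exchanged. The design names biological replicates, but neither the number of animals behind each DNA sample nor any pooling is given. The number of arrays, 2, limits the precision of every value below.

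DNA methylation is the addition of a methyl group to cytosine, in mammals mostly where guanine follows, and it is known to be reshaped in the brain after birth. The hypothalamus governs feeding, body temperature, hormone release and reproduction, and its circuits are still forming during the suckling weeks. In the assay, SmaI removes unmethylated CCCGGG sites by a blunt cut, XmaI opens the methylated ones with an overhang, and only fragments with such overhangs accept the adaptors and are amplified. More P21 signal therefore stands for more amplified material from fragments with methylated ends. The ratio is not a methylation percentage, and signal also depends on how well each fragment amplifies and each probe binds.

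The word low is relative. Of all autosomal runs, 54.4% lay under 10 at P0, and the median P0 level of all runs was 9.61. The low-start gains had a median P0 level of 8.42 (342 on the linear scale), which is at percentile 34.6 of all runs, with quartiles of 7.19 and 9.26. At P21 their median level was 9.85 (921 on the linear scale), at percentile 52.1 of the runs at that age. Their typical course was thus from the lower part of the signal range at birth to about the middle of it at P21, where the median of all runs was 9.66. Individually, 171 of the 365 runs (46.8%) reached 10 or more at P21 and 194 stayed under it. The share of all autosomal runs at 10 or more at P21 was 46.3%. Only 17 low-start gains exceeded 12, against 266 of the 328 gains that started at 10 or above. That contrast is largely set by the P0 limit, since the lowest P21 level of the latter was 11.10.

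**Figure D1:**
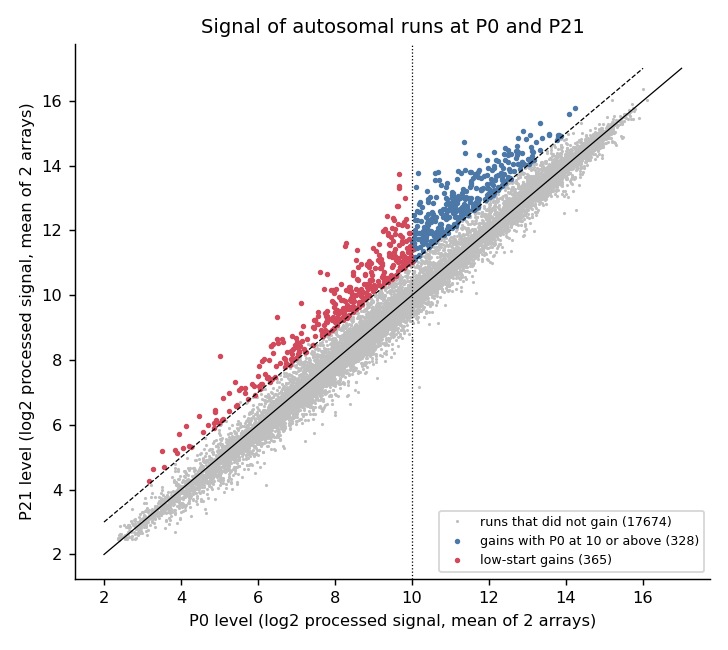
P0 level on the x axis and P21 level on the y axis, both in log2 processed signal averaged over 2 arrays, for each autosomal run. The solid line marks equal signal, the dashed line a 2-fold gain and the dotted line the P0 limit of 10. The 365 low-start gains end between 4.28 and 13.74 at P21, and most lie close to the dashed line.

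In size, the low-start gains had a median log2 ratio of 1.41, a 2.67-fold higher P21 signal. The quartiles were 1.17 and 1.82, and 207 of the 365 lay under 1.5. At the other end, 60 runs (16.4%) reached at least 4-fold and 11 at least 8-fold. Gains that started at 10 or above had a median of 1.47, with 55 of 328 (16.8%) at 4-fold or more and 6 at 8-fold or more. These figures were alike for both kinds of gain. The same ratio limit cut both, so their likeness is partly set by the rule. All autosomal runs together had a median of -0.02.

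The largest of all was the run at chr3:84751599-84752189 (positions are on mouse build mm8, per the file headers). Its 4 probes rose from a P0 level of 9.73 on array A and 9.61 on array B to 13.93 and 13.55 at P21. The log2 ratio was 4.07 ± 0.18 (SD, n = 2), or 16.8-fold, and the P21 levels of both arrays lay far above both P0 levels. The run at chr9:96246794-96247461 followed, from 9.79 and 9.54 to 13.55 and 13.19, a ratio of 3.71 ± 0.08 (SD, n = 2). At chr7:108982249-108982823 the 3 probes went from 9.76 and 9.56 to 13.69 and 12.93, a ratio of 3.65 ± 0.40 (SD, n = 2). These 3 runs also had the 3 highest P21 levels of all low-start gains, and each had started close to the limit of 10, at 9.67, 9.66 and 9.66. The other runs among the 5 highest at P21 were chr2:33522835-33523458 at 13.01 and chr10:127123975-127124599 at 12.76.

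Large gains also began well below the limit. The run at chr15:102846563-102847189 had P0 levels of 8.34 and 8.24 and P21 levels of 11.74 and 11.46 on arrays A and B, a ratio of 3.31 ± 0.13 (SD, n = 2). At chr4:55229725-55230150 the levels were 8.21 and 8.29 at P0 and 11.53 on both arrays at P21, a ratio of 3.28 ± 0.05 (SD, n = 2). The run at chr15:85351317-85352116 had 7.81 and 7.39 at P0 and 10.80 and 10.62 at P21, a ratio of 3.11 ± 0.17 (SD, n = 2). At chr9:43021092-43021757 the levels were 7.68 and 7.93 at P0 and 10.68 and 10.63 at P21. In all 4 runs the P21 levels of both arrays lay well clear of both P0 levels. A further large gain was left out of the naming rule, which required P0 well above background at every probe, and was picked out after its values were seen. It was the 3-probe run at chr15:98603142-98603583, which rose from 5.02 to 8.13, a ratio of 3.12 ± 0.16 (SD, n = 2). Its mean P0 level was below the 95th percentile of the negative control spots at P0, 5.67 (array A) and 6.50 (array B). By that measure the size of this gain is not reliable.

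The arrays differed most among the 12 named runs at chr12:109885926-109886570, with a ratio of 3.61 (array A) and 2.70 (array B). At chr10:127123975-127124599 it was 3.52 and 2.73, and at chr19:6897296-6897932 it was 3.21 and 2.54. These 3 runs were at 2.54 or above on either array, but their order among the 12 depends on which array is read. By contrast, the 8-probe run at chr15:101831248-101832523 gave 3.06 and 3.16, and chr2:33522835-33523458 gave 3.23 and 3.12.

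**Figure D2:**
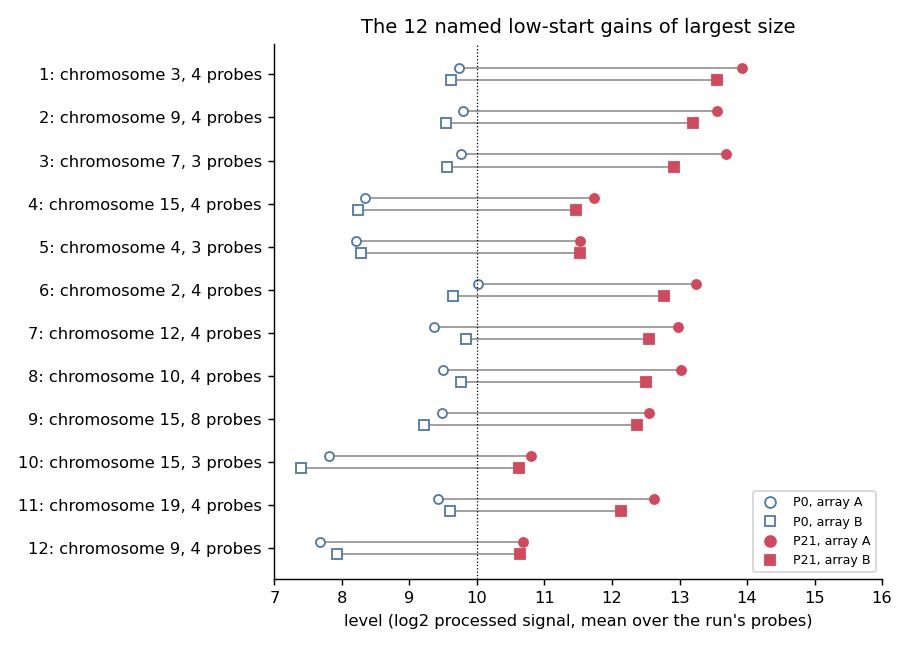
Levels at P0 (open symbols) and P21 (filled symbols) on array A (circles) and array B (squares) for the 12 runs with the largest mean ratio among low-start gains whose P0 signal was well above background at every probe. The x axis is log2 processed signal averaged over the probes of a run, grey lines join the ages within an array, and the dotted line marks the P0 limit of 10. The P21 symbols of every run lie to the right of all its P0 symbols, and the difference within an array runs from 2.54 (chromosome 19, array B) to 4.20 (chromosome 3, array A).

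The 60 runs that gained at least 4-fold lay on 17 chromosomes. Their median P0 level was 9.09 and their median P21 level 11.54, with 52 of them at 10 or more at P21. In 45 of the 60 the ratio was at least 2 on each array, and in all 60 every probe was above 0 on both arrays. Most of these runs (37) held 4 probes, 11 held more and 3 held 2. By P0 level, 31 of the 112 low-start gains between 9 and 10 reached 4-fold, and 15 of the 113 between 8 and 9. Below that it was 7 of 59 between 7 and 8, 6 of 43 between 6 and 7, and 1 of 38 under 6. Across the 365 runs the ratio and the P0 level had r = 0.18 (n = 365 runs). The rule cut both measures, so r covers only the range that was kept. That correlation is a description of runs from the same arrays, and the P0 signal enters both of its measures. Taking the P0 level from the other array gave r = 0.19 both ways.

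Relative to the runs available, gains were about as frequent below the P0 limit as above it. Of the 9998 runs under 10 at P0, 3.65% met the gain rule, against 3.92% of the 8369 runs at 10 or above. Across classes of P0 level the share was lower at both ends than near the limit, without a steady climb. It was 2.19% under 6 (38 of 1734 runs), 3.22% from 6 to 7, 2.66% from 7 to 8, 4.51% from 8 to 9 (113 of 2505) and 5.09% from 9 to 10 (112 of 2201). It was highest just past the limit, at 7.02% from 10 to 11, and lowest at 13 and above, at 0.758%. The limit of 10 thus divides a continuous range of gains near its peak.

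**Figure D3:**
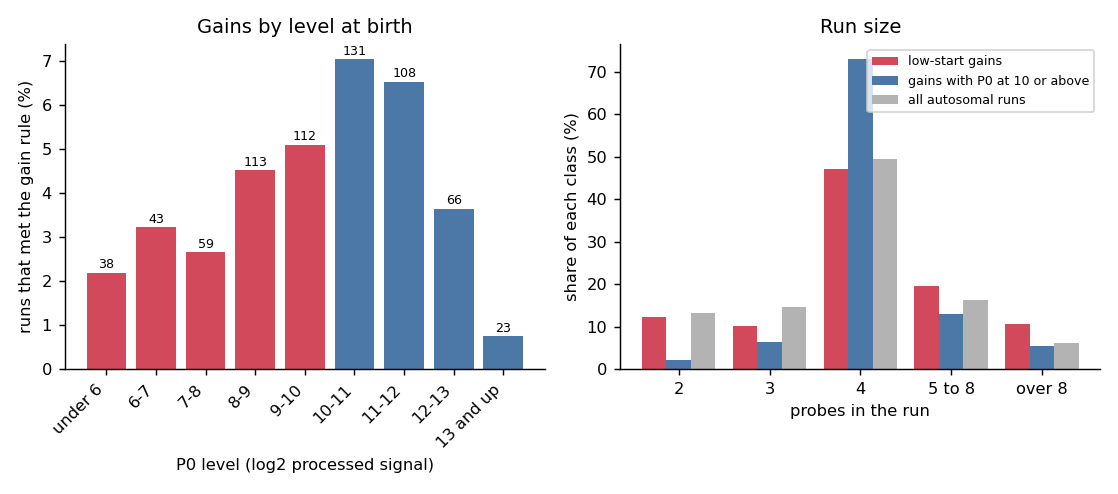
Left, the share of autosomal runs in each class of P0 level (log2 processed signal) that met the gain rule, with the number of gains above each bar and low-start classes in red. Right, the share of low-start gains, of gains with P0 at 10 or above and of all autosomal runs (percent of each) by number of probes in the run. The left bars peak at 7.02% from 10 to 11. Runs of 4 probes make up 47.1% of low-start gains, 72.9% of the other gains and 49.5% of all autosomal runs.

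The runs at the edges of the rule show how fine its limits are. Just inside the ratio limit were chr6:91945041-91946221 at 1.0009, chr11:5797803-5797958 at 1.0033 and chr2:84671328-84672805 at 1.0100. Just outside were chr8:123396894-123397444 at 0.9987, chr12:106285735-106286312 at 0.9961 and chr8:128412095-128412325 at 0.9960. The SDs between arrays of these 6 runs ran from 0.03 to 0.35, far wider than the distance of any of them from 1. Just inside the P0 limit were chr14:117115100-117115920 at 9.9965, chr2:92814915-92815710 at 9.9960 and chr15:31347012-31348272 at 9.9954. Just outside were chr8:73041077-73041843 at 10.0062, chr14:20388428-20389177 at 10.0217 and chr17:45064674-45065231 at 10.0434. The last of these gained 5.38-fold and differs from the low-start gains only by its P0 level.

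The opposite pattern was rarer. The same sizes with the sign changed were met by 92 runs, or 0.501% of all, and 79 of these ended under 10 at P21, the mirror image of a low-start gain. When the ratios were left as red over green without turning array A, the gain rule was met by 8 runs, 7 of them under 10 at P0.

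Both arrays enter the rule, so their similarity within the 365 runs is partly set by it. Array A had a median ratio of 1.53 and array B of 1.36, and array A was the larger in 269 of the 365 runs. Among all autosomal runs array A was the larger in 10076 of 18367. The absolute difference between arrays had a median of 0.23 among low-start gains and 0.20 among all runs. Across the 365 runs the ratios of the arrays had r = 0.81 (rho = 0.69), the P0 levels r = 0.98 and the P21 levels r = 0.99. These are descriptions over runs of a single pair of arrays.

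In 9 runs the arrays differed by more than 1 log2 unit, and all 9 had a P0 level under 8. The widest was chr17:6711209-6711590, where 2 probes gave 3.0 on array A and 0.68 on array B. At chr2:166403135-166403460 the order was the reverse, 0.79 on array A and 2.40 on array B. For these 9 runs the size of the gain is not fixed by the data. Their shared direction is no separate evidence, because the rule required a rise of at least about 1.5-fold on each array. On array B, both ages of chr17:6711209-6711590 were within the 95th percentile of the negative control spots.

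**Figure D4:**
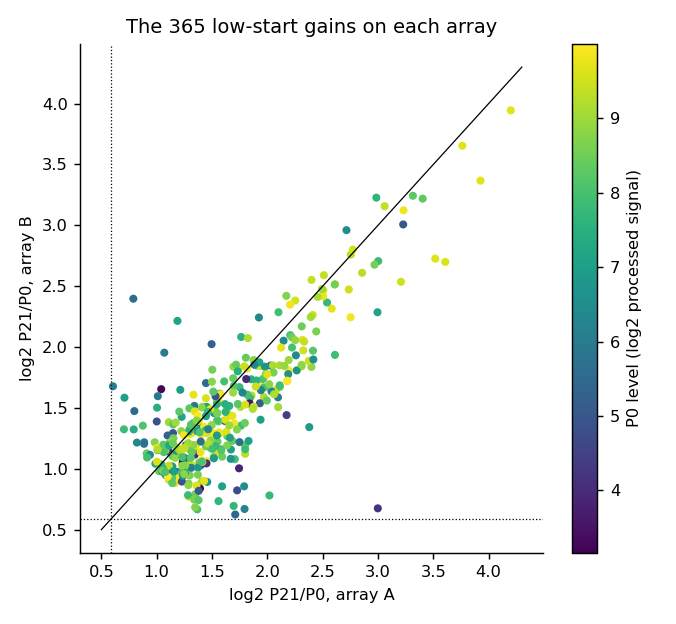
Log2 P21/P0 on array A (x axis) against array B (y axis) for the 365 low-start gains, coloured by P0 level in log2 processed signal. The solid line marks equal ratios and the dotted lines the limit of about 1.5-fold on each array. The runs follow the line with r = 0.81, and the 9 runs differing by more than 1 have P0 levels under 8.

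Selecting on a single array leaves the other as a measurement the selection did not use. With a ratio of at least 1 and P0 under 10 on array A alone, 432 runs were selected with a median ratio of 1.45 there. On array B these had a median of 1.22, and 388 of 432 (89.8%) reached 1.5-fold, against 7.86% of all autosomal runs. Selected on array B alone, 360 runs had a median of 1.39 there and 1.52 on array A, and 342 of 360 (95%) reached 1.5-fold on array A, against 8.65% of all runs. At the stricter level of 2-fold, 292 of 432 (67.6%) and 300 of 360 (83.3%) were kept. Gains from 10 or above were kept at 1.5-fold in 98.8% and 99.7% of cases. Selected on array A, they had a median of 1.49 there and 1.42 on array B. Selected on array B, they had 1.45 there and 1.51 on array A. Losses that ended under 10 were kept less fully, in 69 of 103 (67.0%) from array A to array B and 108 of 244 (44.3%) from array B to array A. No test was run on these shares, since neighbouring runs and both selections share the same pair of arrays.

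How far the P0 signal stood above background sets what a ratio can mean here. In 296 of the 365 runs every probe was well above background at P0 on both arrays, by the flags of the scanner software. In 62 runs only some of the spots were, and in 7 none were. At P21, every probe was well above background in 333 runs. The negative control spots gave a second yardstick: in 312 runs the P0 level exceeded their 95th percentile on both arrays. The other 53 had a median ratio of 1.31 and a median P21 level of only 6.84, and the 312 had a median ratio of 1.43. Local background around the spots did not set these runs apart: its median at P0 was 41 (array A) and 17 (array B), for the probes of low-start gains as for all probes.

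In 7 runs the P0 signal was not well above background at any probe, and their ratios are not reliable as sizes. Against the dimmest probes that were well above background, after loess and Aquantile, P21 was at least 2.18-fold higher at chr7:69699493-69699938. The same comparison gave at least 1.64-fold at chr4:147170757-147171090, 1.62-fold at chr5:50322942-50323923 and 1.55-fold at chr12:105038056-105038449. It gave at least 1.52-fold at chr4:147169576-147170077, where 1 of the 2 probes was well above background at P21, and 1.45-fold at chr8:60297318-60297720. At chr6:88158672-88159152 neither age was well above background and no fold is given. These bounds rest on the scanner flags alone. By the negative controls, the P21 level of all 7 runs was within their 95th percentile on both arrays, so that by this measure neither age was measured and the bounds do not hold. With normexp and no loess the log2 ratios of the first 5 runs were -0.12, -0.21, -0.20, -0.15 and -0.11.

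Background correction changed the number of runs that met the rule more than any other step tried. With normexp background correction and loess fitted on all spots the count fell from 365 to 97, and with normexp and no loess to 104. On array B the spots fitted included 4 at P0 and 3 at P21 whose local background was far above the spot, in the extreme case with a difference of -83047 intensity units. The 10th percentile of corrected log2 P0 signal on array B was 9.84 with all spots and 6.62 when 6818 flagged spots were left out of the fit. With the latter fit and loess, 287 runs met the rule. Of the 365, 255 still met the gain rule with it and all 365 kept a ratio above 0. With normexp and no loess, 332 stayed above 0 and 33 did not, the lowest at -0.26. With normexp fitted without flagged spots and loess, the 12 named largest runs kept 5.69- to 15.3-fold, or log2 ratios of 2.51 to 3.94. With normexp and loess fitted on all spots their log2 ratios were 1.80 to 3.45.

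Low-start gains were more spread in run size than the other gains, with larger shares of both long and short runs and the same median of 4 probes. Runs of over 4 probes made up 30.4% of them (111 of 365), 18.6% of gains from 10 or above, 25% of runs under 10 that did not gain and 22.6% of all runs. Runs of over 8 probes made up 10.7%, 5.49% and 6.19% of low-start gains, other gains and all runs. The median span was 796 bp, against 593.5 bp for the other gains and 607 bp for all runs, and neighbouring probes began a median of 211 bp apart. The most frequent size was 4 probes, with 172 runs (47.1%, against 49.5% of all runs). Runs of 2 probes numbered 45 (12.3%), against 2.13% of the other gains, 13.3% of all runs and 16.7% of runs under 10. Runs of 3 probes made up 10.1% and 6.40%, against 14.6% of all runs and 17.7% of runs under 10. The shares of short runs among low-start gains were thus below those of all runs, and the other gains held fewer still. With probes joined only at gaps up to 250 bp the share of runs over 4 probes was 19.6%.

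Members with 2 or 3 probes had lower signal than larger ones. The median P0 level was 6.62 with 2 probes and 6.89 with 3, and 8.75, 8.57 and 8.67 with 4, 5 to 8 and over 8. The median P21 levels of 2- and 4-probe members were 7.91 and 10.27. Median ratios varied little with size, from 1.33 in runs of over 8 probes to 1.48 in 3-probe runs. Relative to the runs available under 10, the share that gained was 2.70% for 2 probes, 2.09% for 3, 4.26% for 4, 4.16% for 5 to 8 and 4.91% for over 8. The share was thus lower for runs of 2 and 3 probes, whose mean rests on fewer spots, than for larger ones.

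Within a run the probes mostly moved together. Of the 1951 probes in low-start gains, 92.8% were above 0 on both arrays and 81.0% were past 1.5-fold on both. Over all autosomal runs these shares were 28.7% and 6.76%, but the rule acted on the mean of the same probes. In 311 of the 365 runs every probe was above 0 on both arrays. Short and long runs differed in this: the range of probe ratios within a run had a median of 0.40 in the 254 runs of 2 to 4 probes and 2.07 in the 111 longer ones. Every probe was above 0 on both arrays in 250 of the 254 shorter runs and in 61 of the 111 longer runs. Both figures depend on the number of probes by construction, and other runs of the same size were not compared.

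A low mean at birth did not always mean that the whole run was low. In 221 runs every probe was under 10 at P0, and in 144 at least 1 probe was at 10 or above. The latter included 63 of the 254 shorter and 81 of the 111 longer runs. Requiring every probe under 10 left 221 low-start gains with a median P0 level of 7.72, a median P21 level of 9.23 and a median ratio of 1.44. Only 13.6% of those had over 4 probes, but a longer run has more chances of holding a probe at 10 or above. Among single probes of the 365 runs, the 1601 under 10 had a median ratio of 1.44 and the 350 at 10 or above of 1.74.

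The 44 members with 8 probes show this unevenness on a small scale. When each was divided into its first 4 and last 4 probes, the higher part had a median ratio of 2.08 and the lower part of 0.88. In 19 of the 44 both parts reached 1, in 13 the lower part was under 1.5-fold, and in 2 it was below 0. The higher part also had more signal at birth, with a median P0 level of 9.51 against 7.67. At chr17:26785010-26786396 the parts were 3.47 and -0.46, the widest gap. At chr15:76288623-76290756 they were 1.67 and 1.65, so that the whole run rose evenly. Whether the parts correspond to separate restriction fragments was not tested, because no sequence of this genome build was used here.

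Of the 5 members with the most probes, 4 held stretches of strong gain beside probes near or below 0, and the run on chromosome 1 rose throughout. At chr5:111657171-111661219, with 28 probes and a ratio of 1.12 ± 0.03 (SD, n = 2), 12 neighbouring probes from 1733 to 3758 bp after the first were past 1 on both arrays. Their median ratio was 2.80, and the other 16 probes had a median of 0.05. The median P0 level was 8.07 in the stretch and 8.0 outside it, but single probes of the stretch ran from 6.19 to 10.96. Before the block the probes lay near 0, and the last 2 probes after it were below 0 on both arrays, at -0.46 and -0.60. The mean of 2.18-fold describes none of these parts. The median over its probes was a log2 ratio of 0.29, with which it would not meet the rule.

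At chr16:18497659-18504159, with 26 probes over 6501 bp and a ratio of 1.34 ± 0.06 (SD, n = 2), a block of 4 probes from 632 to 1301 bp had a median ratio of 3.93. The other 22 had a median of 0.68, and 21 of the 26 probes were above 0 on both arrays. The median over its probes was 0.89, also short of the rule. At chr11:74981191-74984911, with 24 probes and a ratio of 1.82 ± 0.03 (SD, n = 2), the first 12 probes to 1829 bp formed a stretch with a median of 2.31. The gain there covered 18 of the 24 probes past 1 on both arrays, and the last probes were close to 0. At chr8:36273909-36279151, with 29 probes and a ratio of 1.16 ± 0.07 (SD, n = 2), the strong probes lay at both ends. A stretch of 6 probes began the run, and the highest probe ratio, 3.16, lay 4824 bp from its first probe. At chr1:189306450-189310778 all 21 probes were above 0 on both arrays, 17 of them past 1, with a mean ratio of 1.59 ± 0.03 (SD, n = 2). It was the only one of the 5 in which no probe had a mean ratio of 0 or below. Median P0 levels were higher in the longest stretch past 1 than in the remaining probes in every run but that on chromosome 8. They were 8.94 and 7.80 on chromosome 16, 9.93 and 8.66 on chromosome 11, 7.19 and 8.25 on chromosome 8, and 8.24 and 8.10 on chromosome 1. On chromosome 5 they were nearly equal, at 8.07 and 8.0. The remaining probes on chromosome 8 included the probe with the highest ratio, whose P0 level was 11.89.

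**Figure D5:**
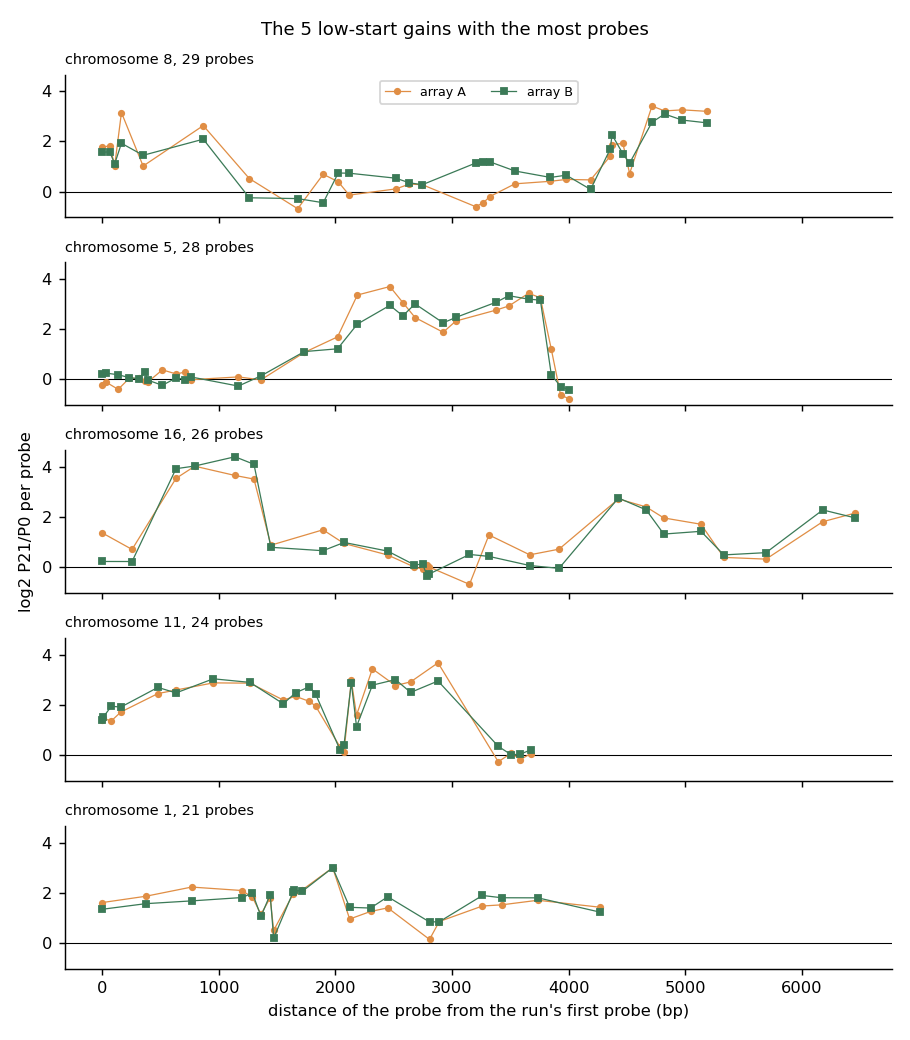
Log2 P21/P0 of each probe (y axis) on array A (orange circles) and array B (green squares) against distance from the first probe of the run in bp (x axis), for the 5 low-start gains with the most probes. The line at 0 marks equal signal. On chromosome 5 the gain lies in a block from 1733 to 3758 bp in both arrays, and on chromosome 1 all 21 probes lie above 0.

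Some low-start gains lay close together. Another low-start gain lay within 100 kb of 75 of the 365 (20.5%), and any other gain within 100 kb of 104 (28.5%). The corresponding figures for gains from 10 or above were 39 (11.9%) to their own kind and 73 (22.3%) to any gain. The same shares over all autosomal runs were not computed, so these figures lack a base rate. Density of probing also differed: the nearest run of any kind lay a median of 12490 bp from low-start gains. It was 12854 bp for the other gains and 15831 bp for all runs. The median distance to the nearest low-start gain was 827 kb, the shortest 513 bp and the longest 45.2 Mb, and 26 runs had none within 10 Mb. The share within 100 kb depends on how runs are built: it was 38.8% when probes were joined only at gaps up to 250 bp, which divides long runs into neighbours. It was 10.3% among the 97 runs of the normexp and loess fit on all spots.

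The close neighbours formed 33 groups within 100 kb, of which 25 were pairs and 8 held at least 3 runs (25 runs in all). The largest lay at chr8:87596928-87636035 and held 4 runs of 8, 4, 8 and 10 probes, which were all the runs probed in that stretch. Their ratios were 2.46, 1.69, 1.06 and 1.88 in order of position, and P21 levels were 12.26, 11.17, 10.96 and 10.17. The tightest group spanned 2746 bp at chr2:167850680-167853425, with ratios of 2.64 ± 0.50, 1.80 ± 0.42 and 1.51 ± 0.15 (SD, n = 2 each). A group of nearly the same length lay at chr5:118696574-118699353, where the ratios were 2.84, 1.51 and 2.10 from P0 levels of 6.48, 8.04 and 6.4. It belongs to the stretch of chromosome 5 from 118 to 121 Mb, where 5 of 73 runs were low-start gains and 4 were gains from 10 or above. Over all autosomes these were 365 and 328 of 18367 runs. The stretch was placed by the position of this group, whose 3 runs are among the 5, so its share is partly set by that choice. In each of these 3 groups every run between the ends met the gain rule, so no unchanged run was measured inside them. All other groups of at least 3 low-start gains also held runs that did not meet it. The share that gained ran from 3 of 4 runs at chr2:164858149-164914113 to 3 of 7 at chr1:75243682-75327624 and chr8:94538099-94695447. Median ratios over all runs of these were 1.36, 0.44 and 0.44.

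The surroundings of a low-start gain were raised mostly over a short distance. Of 81 flanks lying 500 to 2000 bp away, counted from each low-start gain, 31 (38.3%) met the gain rule. Of these, 28 were low-start gains and 3 were gains from 10 or above. The median ratio of the 81 was 0.76 (array A) and 0.59 (array B), and 60 of the 81 were above 0 on both arrays. Neighbouring low-start gains served as each other's flank, so each such pair enters these figures from both sides. Even the 50 that did not meet the rule had a median of 0.28. From 2 to 10 kb the share that gained was 12.7% (15 of 118), from 10 to 100 kb 5.39%, and beyond 100 kb 1.88%. For flanks of all autosomal runs the shares over the same 4 distances were 2.83%, 5.14%, 4.11% and 2.91%, so that beyond 10 kb the shares were near those of all runs. Around gains from 10 or above it was 7 of 28 (25%).

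Low-start gains were found on every autosome, in unequal shares of the runs probed. Chromosome 11 held 41, chromosome 4 held 40, chromosome 2 held 38 and chromosome 9 held 30. As a share of runs, chromosome 9 was highest at 3.09%, and chromosome 18 (3 runs, 0.556%) and chromosome 3 (6 runs, 0.788%) were lowest. Chromosome 3 thus carried the largest single gain and few others. Of all gains on a chromosome, 66.7% started low on chromosome 9 and 31.6% on chromosome 3. Divided into 5 equal parts of the probed length from the lowest position, the chromosomes held 49, 57, 47, 89 and 123 low-start gains. The last part held 33.7% of them and 31.8% of all runs, so the rise in their number runs beside the rise in the number of runs probed. As a share of runs the parts ran from 1.48% to 2.35%.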

How the data were processed

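The deposited log10 ratios divide the red by the green signal of a spot. Per the file headers, local background was first subtracted and the dyes were scaled linearly to each other. The deposited intensity values that went into the ratios, 1 for each dye, are linear, and the deposited flags mark spots well above background, saturated or outlying. The file headers name Feature Extraction 10.5.1.1 and the submitters' processing notes Agilent Feature Extraction 9.1.3.1. The rounded log10 values in the authors' summary match these ratios with array A turned (largest difference 0.00496, column medians 0).

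Control spots and 800 outlier spots of 90535 were left out, which kept 89726 probes, and no spot was saturated (0). Log10 ratios were turned to log2 P21/P0 by multiplying by log2 of 10 and changing the sign of array A, with no loess step. Probes were joined across gaps of up to 500 bp, ratios and log2 levels were averaged per run, and 2516 autosomal runs with a single probe were set aside. No test was run: the runs were chosen on these values, and an exact sign test over 2 arrays has little reach. Bounds for dim runs were taken after loess and Aquantile. The members, lists and limits were chosen with earlier results of these data known.

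The runs named are the 12 largest ratios with P0 well above background at every probe, the 5 highest P21 levels, the 5 with the most probes, and 3 runs on each side of both limits. Also named are the tightest group and up to 5 runs without measurable P0 signal, and others named were picked after their values were seen. Alternatives covered background correction, loess, outlier spots, run gaps, probe minimum, P0 limit, background flags, averaging and leaving out each array. The files pair no probe with a gene and the reference gene table is of a later build, so no gene, site or sequence is given, and the tissue label was not checked against marker genes. The selection step was tested on simulated data. Tools were Python 3.11.15, numpy 2.4.6, pandas 2.3.3, scipy 1.17.1, matplotlib 3.10.9, R 4.3.3, limma 3.58.1 and, to read files, data.table (1.17.8).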

Additional observations from a re-analysis of the deposited data

Results flagged for a closer look

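Runs with a single probe were not part of the autosomal runs described above. Among the 2516 lone autosomal probes, 39 (1.55%) met the same limits on ratio and P0 level. Their log2 ratios ran from 1.0 to 3.41 with a median of 1.49, and in 32 of the 39 the P0 signal was well above background on both arrays.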

How the results depend on the processing

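The values compared are the count of low-start gains, their median ratio and P21 level, the share of low runs that gained, the shares with over 4 probes and within 100 kb of another, and the shares kept across arrays. With 2 arrays, depth is limited to signal over background, and 53 of the 365 runs had P0 signals within the range of 95% of negative controls on at least 1 array. The offset of 50 used with normexp shrinks dim ratios by construction. Of the 12 largest named runs, 0 moved by over 1.5 times with normexp fitted without flagged spots. The cause of the changes below was not tested except where a setting changes which probes or runs are counted.

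Normexp and loess on all spots gave 97 runs, a median ratio of 1.46, a median P21 level of 10.9992, 1.0% of low runs gained, 34.0% over 4 probes and 10.3% within 100 kb. From array A to array B 57.5% were kept (188 of 327), and from B to A the 1 run selected was not (0%). Normexp with no loess gave 104 runs, 1.49, 11.10, 1.08%, 26.0% and 12.5% in the same order. With it 33 of the 365 runs were not above 0. Of the runs named, 5 members and 1 run just outside the ratio limit fell below 0, namely chr12:105038056-105038449 at -0.15, chr4:147169576-147170077 at -0.11, chr4:147170757-147171090 at -0.21, chr5:50322942-50323923 at -0.20, chr7:69699493-69699938 at -0.12 and chr8:123396894-123397444 at -0.21.

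Gaps up to 250 bp gave a median ratio of 1.49, a P21 level of 10.19, 4.44% of low runs gained, 19.6% over 4 probes and 38.8% within 100 kb. Gaps up to 1000 bp gave a P21 level of 10.06, 32.5% over 4 probes and 15.1% within 100 kb. A minimum of 3 probes gave 10.08, 34.7% and 17.2% for the same quantities. A P0 limit of 9 gave a P21 level of 9.28 and 15.81% within 100 kb. A limit of 11 gave a median ratio of 1.46, a P21 level of 10.61, 4.18% of low runs gained and 29.2% over 4 probes. Requiring both channels well above background gave a P21 level of 10.11 and 32.4% over 4 probes. The median over probes gave a ratio of 1.47 and 27.1% over 4 probes. A level of 1 for keeping a run gave 67.6% from A to B and 83.3% from B to A.

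Without each array in turn the P21 level ran from 9.77 to 9.86, the share of low runs that gained from 3.60% to 4.31%, the share over 4 probes from 28.3% to 29.9% and the share within 100 kb from 20% to 23.4%. The count ran from 360 to 432 and the median ratio from 1.39 to 1.45.

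The following settings were chosen after seeing the data. Normexp and loess for the ratio with the deposited P0 level gave 125 runs, a P21 level of 11.13, 1.25% of low runs gained, 35.2% over 4 probes and 12.8% within 100 kb. Normexp fitted without flagged spots, and loess, gave a P21 level of 10.39, 2.76% of low runs gained, 18.1% within 100 kb, and 97.0% kept from A to B. The same with the deposited P0 level gave a median ratio of 1.36, 10.33, 2.56% and 32.8% over 4 probes. P0 well above background at every probe gave a median ratio of 1.46, 10.16, 2.96% and 26.4% over 4 probes. Every probe under 10 at P0 gave 221 runs, 9.23, 2.21% and 13.6% over 4 probes.

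Of 134 alternative values of these quantities, 72 stayed within their limit. The limit was the spread between the arrays, 1.5 times for the count, and a 95% interval over runs for shares kept across arrays. For single named runs 256 stayed within the spread between the arrays, 102 moved beyond it and 6 changed sign. The 256 include values that could not move beyond it. Leaving out either array (37 runs each) stays within that spread by construction, and median centring (37 runs) changed no ratio.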

Other observations

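The X chromosome was left out of the rule. Of its 385 runs, 157 lay under 10 at P0 and 2 met the limits of a low-start gain (0.519% of X runs). They were neighbours, at chrX:11295037-11295281 and chrX:11295891-11297168. The first had log2 ratios of 1.5 on array A and 1.45 on array B from a P0 level of 9.34, and the second of 1.16 and 1.07 from 6.66. Together they form a pair like those seen on the autosomes, and no other X run reached the limits.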
